A study of Chlorocebus sabaeus with 4 samples.

Results

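The respiratory chain subunits encoded in the nucleus were taken by gene symbol: NDUFA, NDUFB, NDUFC, NDUFS and NDUFV names followed by a digit for complex I, SDHA to SDHD for complex II, UQCR names and CYC1 for complex III, COX names of the numbers 4 to 8 followed by A, B or C for complex IV, and ATP5 names for complex V. Of 19775 genes with a value, 75 were taken: 32 in complex I, 3 in complex II, 7 in complex III, 15 in complex IV and 18 in complex V. Pseudogenes, antisense RNAs and a divergent transcript, 5 symbols in all, were left out. COX4I1, COX4I2 and NDUFAB1 are not caught by these names, nor is COXFA4, formerly NDUFA4, and their values are given apart. NDUFS5, NDUFS8, NDUFC2, SDHB, UQCRFS1 and UQCRH were not analysed here.

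The tissue was the corpus luteum, the gland that follows ovulation and secretes progesterone, of 2 adult female vervet monkeys (Chlorocebus sabaeus) aged 16 years. Monkey 1031 was on calorie restriction and monkey 1030 was fed ad libitum, and each gave 2 samples, numbered 1 and 2, with 1 array per sample. No label tells which number came first, so a change is always sample 2 minus sample 1. The labels make each animal its own control for weight change. Each diet stands for 1 animal, and arrays with probe sets designed on human genes were used on vervet RNA.

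Complexes I to IV pass electrons from NADH and succinate to oxygen and, except for complex II, pump protons out of the mitochondrial matrix, and complex V, ATP synthase, uses the proton gradient to make ATP. Most subunits are encoded in the nucleus and a few in mitochondrial DNA. Steroid-secreting luteal cells are rich in mitochondria, where side-chain cleavage of cholesterol takes place.

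Values are log2 signals, so a difference of 1 is 2-fold. A gene counted as past the level filter when its mean over the 4 samples was at or above the median of all genes, log2 5.26, and 68 of the 75 subunits passed. A change is called higher or lower at 1.5-fold, a rule of size, since 1 array against 1 has no replicate check and gives no p-value. The median over all probe sets lay between 3.96 and 4.00 in every array. Sample 2 of the ad libitum animal stood apart: 1031 and 912 genes were 2-fold from it in samples 2 and 1 of the calorie restriction animal, and 915 in its own sample 1, whereas the other 3 arrays differed from each other in 122 to 333 genes. All results on the ad libitum animal's change rest on that array. Of the labelled tissue's markers, 10 of 10 measured genes of luteal steroidogenic cells passed the level filter on their mean over the 4 samples. In the ad libitum sample 2, however, CYP19A1 (4.41) and PRLR (5.12) lay below it, and 9 of the 10 were over 2-fold lower than in sample 1.

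The 75 subunits had mean log2 signals of 8.50 and 8.22 in samples 2 and 1 of the calorie restriction animal, and of 8.12 and 8.47 in those of the ad libitum animal. The ad libitum animal's sample 2 was the lowest, and it was the lowest of the 4 samples for 47 of 75 single subunits (62.7%), against 36.4% of all genes. In the calorie restriction animal 69 of 75 subunits (92%) had a positive change, against 45.6% of all 9888 genes past the level filter, and the median change was 0.31 (all genes -0.026). In the ad libitum animal 68 of 75 (90.7%) had a negative change, against 51.4% of all genes, and the median was -0.31 (all genes -0.013). The pair of a positive change in the first animal and a negative one in the second was found in 62 of 75 subunits (82.7%), against 27.3% of all genes. Over the 68 subunits past the level filter, which all genes counted here had passed, these shares were 94.1%, 92.6% and 86.8%. No subunit had the opposite pair, while 7 were positive in both animals and 6 negative in both.

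The changes were small. In the calorie restriction animal 5 of 75 subunits (6.67%) were 1.5-fold higher, against 2.01% of all genes, none was 1.5-fold lower (3.93% of all genes) and none reached 2-fold (1.23% of all genes, either way). In the ad libitum animal 14 of 75 (18.7%) were 1.5-fold lower, a share not far above the 15.2% of all genes. None was 1.5-fold higher (9.54% of all genes). Over the 68 subunits past the level filter, 7.35% were 1.5-fold higher in the calorie restriction animal and 20.6% lower in the ad libitum animal. COX7A1 alone was past 2-fold there (6.58% of all genes were 2-fold lower). At 2-fold in either direction, 9.25% of all genes were called in that animal. The subunits' share of 1 direction lay further from that of all genes than their share past 1.5-fold did. The 4944 genes at or above the 75th percentile of mean signal had median changes of -0.031 in the calorie restriction animal and -0.076 in the ad libitum animal. The 55 subunits among them had medians of 0.34 and -0.35. The part of signal level in the subunits' changes was not tested.

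**Figure D1:**
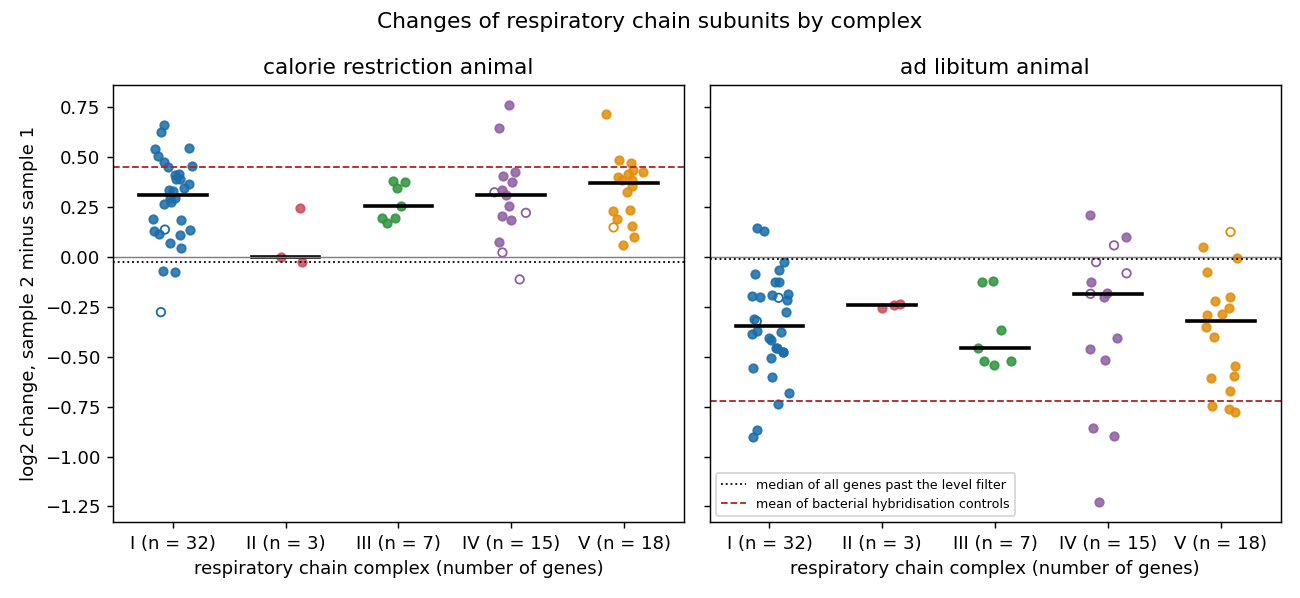
Log2 change, sample 2 minus sample 1 (vertical axis), of each of the 75 subunits by complex, in the calorie restriction animal (left) and the ad libitum animal (right). Points are genes (open: below the level filter), black bars are medians per complex, the dotted line is the median of all genes past the filter and the dashed line the mean of the bacterial hybridisation controls. Medians of complexes I, III, IV and V, with open points included, lie at 0.25 to 0.37 on the left and at -0.46 to -0.19 on the right.

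A set of bacterial RNAs that is added to follow the hybridisation moved in the same directions. The 18 probe sets of these controls averaged 10.54 and 10.09 in samples 2 and 1 of the calorie restriction animal and 9.85 and 10.58 in those of the ad libitum animal, changes of 0.45 and -0.72. Each single control probe set had a positive change in the first animal (0.12 to 0.66) and a negative one in the second (-0.97 to -0.50). When every array was shifted so that its controls were level, an alternative added after seeing the data, the subunits' medians were -0.14 and 0.41, of reversed sign, and 12 and 9 of the 75 kept a positive and a negative change. The same shift moved all genes, by -0.45 and 0.72, so that by construction the subunits' medians stayed 0.34 above and 0.30 below (-0.30) the median of all genes. Directions below are therefore on the deposited scale and relative to the other genes of the array. Of 60 cytosolic ribosomal proteins, also of high signal, 51 were positive in the calorie restriction animal (median 0.14) and 9 negative in the ad libitum animal (median 0.23). The part of the hybridisation in the subunits' changes was not tested.

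Markers of luteal steroidogenic cells were also lowest in the ad libitum sample 2, though highest in the ad libitum sample 1. The 10 measured markers averaged 10.02 and 9.30 in samples 2 and 1 of the calorie restriction animal and 7.44 and 10.79 in those of the ad libitum animal, with medians of change of 0.72 and -3.58. Fibroblast markers averaged 10.81 and 10.60, and 10.49 and 10.88, also lowest in the ad libitum sample 2. Macrophage markers averaged 7.13 and 7.45 in the calorie restriction animal and 8.11 and 7.33 in the ad libitum animal. Theca and interstitial markers averaged 7.80 and 9.04, and 10.52 and 9.17, and both means were highest in the ad libitum sample 2. CHIT1 had the largest macrophage change, with 4.02 and 5.95, and 11.51 and 7.93. In the ad libitum animal 1 of 8 macrophage markers, CD163 (-1.28), and 1 of 5 theca and interstitial markers, CYB5A (-0.42), had a negative change. Oocyte markers averaged 4.12 and 4.28, and 5.92 and 4.39, also highest in the ad libitum sample 2. Endothelial markers averaged 7.82 and 8.14, and 6.45 and 7.65. Red blood cell markers averaged 8.24 and 7.83, and 6.73 and 7.34, and HBB, a haemoglobin gene, had the subunits' pair of signs (0.63 and -1.22). RNA of whole tissue cannot tell fewer cells of a type from less RNA per cell, and the part of the cell types in the subunits' changes was not tested. RNA quality by the 3' minus 5' difference of GAPDH was 1.41 and 1.31 in the calorie restriction animal and 1.15 and 1.29 in the ad libitum animal, and that of ACTB was 1.73 and 1.48, and 1.65 and 1.61.

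**Figure D2:**
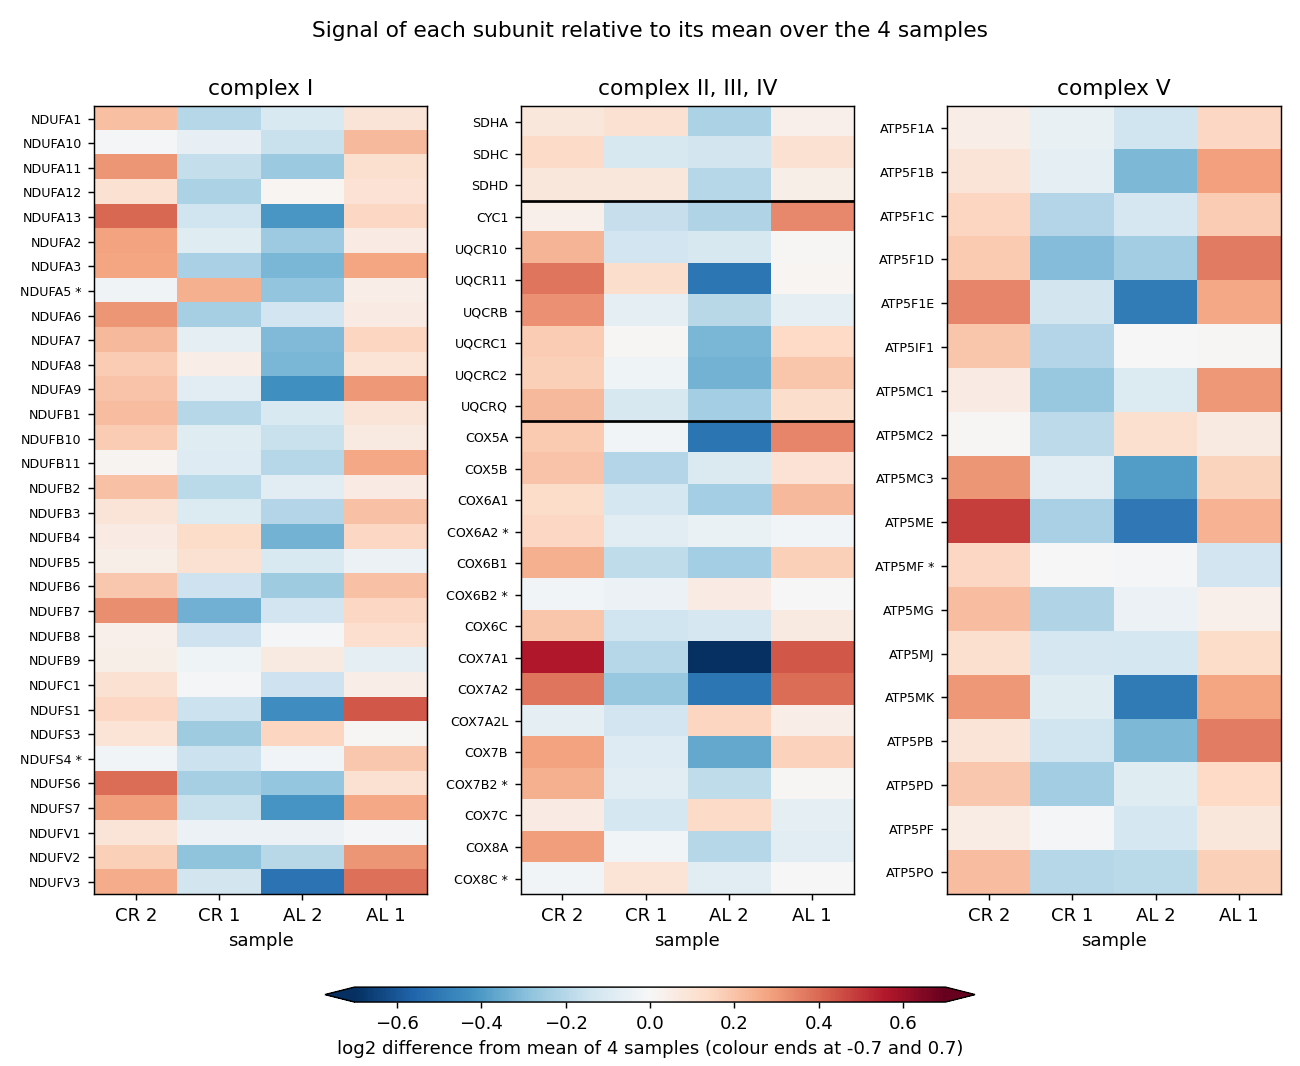
Log2 signal of each subunit minus its mean over the 4 samples (colour, red above and blue below the mean), with samples 2 and 1 of the calorie restriction animal (CR) and then of the ad libitum animal (AL) in columns. Stars mark the subunits below the level filter. The columns CR 2 and AL 1 are mostly red and the columns CR 1 and AL 2 mostly blue, and AL 2 is the lowest of the 4 samples for 47 of the 75 subunits.

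Complex I, the NADH dehydrogenase that starts the chain, had a median change of 0.31 in the calorie restriction animal (range -0.28 to 0.66) and -0.35 in the ad libitum animal (range -0.90 to 0.14). Of its 32 subunits, 27 had a positive change in the first and a negative one in the second. The catalytic subunits of the hydrophilic arm differed among themselves. NDUFS1, which carries iron-sulfur clusters, had log2 signals of 10.35 and 10.05 in samples 2 and 1 of the calorie restriction animal and 9.77 and 10.64 in those of the ad libitum animal. The change was 0.29 in the calorie restriction animal, and in the ad libitum animal sample 2 was 1.83-fold lower (-0.87). NDUFS7, which holds the cluster next to ubiquinone, had 8.88 and 8.43, and 8.18 and 8.86, in the same order, and had a change of 0.45 in the calorie restriction animal and was 1.60-fold lower in the ad libitum animal (-0.68).

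By contrast, NDUFV1, which binds NADH and the flavin, hardly moved, with 8.83 and 8.70 in the calorie restriction animal and 8.70 and 8.73 in the ad libitum animal (changes 0.13 and -0.027). NDUFV2, its iron-sulfur partner, had 9.999 and 9.55 in the calorie restriction animal, and 9.63 and 10.14 in the ad libitum animal (changes 0.45 and -0.51). NDUFS3, another core subunit of this arm, had 9.11 and 8.76, and 9.16 and 9.02, so that it was positive in both animals (0.34 and 0.14).

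Among the accessory subunits, NDUFV3, of the NADH-oxidising module, had the largest change of complex I in the ad libitum animal, with 7.24 and 6.85 in the calorie restriction animal and 6.46 and 7.37 in the ad libitum animal (changes 0.39 and -0.90). NDUFA9, at the joint of the arms, had 7.54 and 7.27 in the calorie restriction animal and 6.91 and 7.65 in the ad libitum animal, where it was 1.67-fold lower (-0.74). The 3 largest changes in the calorie restriction animal were those of NDUFB7, a membrane arm subunit (8.33 and 7.67, 1.58-fold higher), of NDUFS6 (7.35 and 6.73, 1.54-fold higher) and of NDUFA13, also known as GRIM-19 (7.68 and 7.13, change 0.54). In the ad libitum animal NDUFB7 had 7.87 and 8.15, NDUFS6 had 6.69 and 7.07 and NDUFA13 had 6.86 and 7.42, with changes of -0.27, -0.38 and -0.56. NDUFA3, with 8.72 and 8.22 in the calorie restriction animal (0.50) and 8.13 and 8.73 in the ad libitum animal (-0.60), was the fifth subunit of the complex 1.5-fold lower in the ad libitum animal.

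By position, the 14 subunits of the hydrophilic arm had medians of 0.34 and -0.35 and the 18 of the membrane arm 0.23 and -0.32, with overlapping ranges in each animal. The exceptions to the common pair of signs were NDUFS3 and NDUFB9 (0.069 and 0.13), positive in both animals, and NDUFA5 (-0.28 and -0.32, below the level filter), NDUFB4 (-0.075 and -0.47) and NDUFB5 (-0.070 and -0.069), negative in both.

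Complex II, succinate dehydrogenase, which is also an enzyme of the tricarboxylic acid cycle, was measured through 3 of its genes and had the smallest median of the complexes in the calorie restriction animal. SDHA, the flavoprotein that oxidises succinate, had 8.36 and 8.38 in samples 2 and 1 of that animal and 8.05 and 8.31 in those of the ad libitum animal. The membrane anchor SDHD had 7.09 and 7.09, and 6.81 and 7.05, and the other anchor, SDHC, had 8.99 and 8.74, and 8.73 and 8.96. All 3 were lowest in the ad libitum sample 2. The changes in the calorie restriction animal were -0.025 for SDHA, -0.0016 for SDHD and 0.25 for SDHC, and those in the ad libitum animal lay between -0.26 and -0.23.

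Complex III, which hands electrons from ubiquinol to cytochrome c, held to 1 pattern in the chosen probe sets of all 7 of its genes. Their changes were positive in the calorie restriction animal (0.17 to 0.38, median 0.25) and negative in the ad libitum animal (-0.54 to -0.12, median -0.46), and none was 1.5-fold. Other probe sets past the level filter departed from it in UQCRB (0.19 in the ad libitum animal) and UQCRC2 (-0.061 in the calorie restriction animal). CYC1, the cytochrome c1 of the complex, had 8.57 and 8.37 in the calorie restriction animal and 8.32 and 8.87 in the ad libitum animal, where the change of -0.54 was the largest of the complex. The core subunits UQCRC1 and UQCRC2 were close to it, UQCRC1 with 10.72 and 10.55, and 10.22 and 10.68, and UQCRC2 with 9.70 and 9.50, and 9.20 and 9.72. Of the small subunits, UQCRB had the largest change in the calorie restriction animal, with 9.81 and 9.43 there and 9.30 and 9.43 in the ad libitum animal (0.38 and -0.13). UQCR10 had 9.08 and 8.71, and 8.73 and 8.85 (0.37 and -0.12), and UQCRQ 8.17 and 7.83, and 7.70 and 8.06 (0.34 and -0.36). UQCR11, another small subunit, had 6.35 and 6.10, and 5.47 and 5.99 (0.25 and -0.52).

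Complex IV, cytochrome c oxidase, held the largest changes of all 75 subunits and also some of the flattest. COX7A1, the isoform known from heart and skeletal muscle, had log2 signals of 7.19 and 6.43 in samples 2 and 1 of the calorie restriction animal and 5.83 and 7.06 in those of the ad libitum animal. It was 1.69-fold higher in the first animal's sample 2 (0.76) and 2.34-fold lower in the second's (-1.23). COX7A2, its widely expressed counterpart, had 9.78 and 9.13, and 8.89 and 9.79, and was 1.56-fold higher (0.64) and 1.86-fold lower (-0.90). Each of the COX7A pair was lowest in the ad libitum sample 2, and the muscle isoform did not move against the widely expressed one.

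COX7A2L, a relative of the pair that takes part in joining complexes III and IV into supercomplexes, had 8.76 and 8.69 in the calorie restriction animal and 8.97 and 8.87 in the ad libitum animal (changes 0.072 and 0.10). It lay in the opposite order to COX7A1 and COX7A2 in the ad libitum animal, with sample 2 the highest of the 4. Smooth muscle and pericyte markers averaged 9.33 and 8.98 in the calorie restriction animal and 9.97 and 9.61 in the ad libitum animal. They did not move as 1 group. In the ad libitum sample 2, where COX7A1 was lowest, the contractile genes ACTA2, TAGLN, MYH11, CNN1, DES and MYLK were at their highest. The pericyte genes RGS5 (-1.21) and PDGFRB (-0.29) were at their lowest there. Of 5 striated muscle markers, 1 passed the level filter, TNNT1, with 7.17 and 6.78, and 6.50 and 8.49 (changes 0.39 and -1.99). The part of these cells in the COX7A1 values was not tested.

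**Figure D3:**
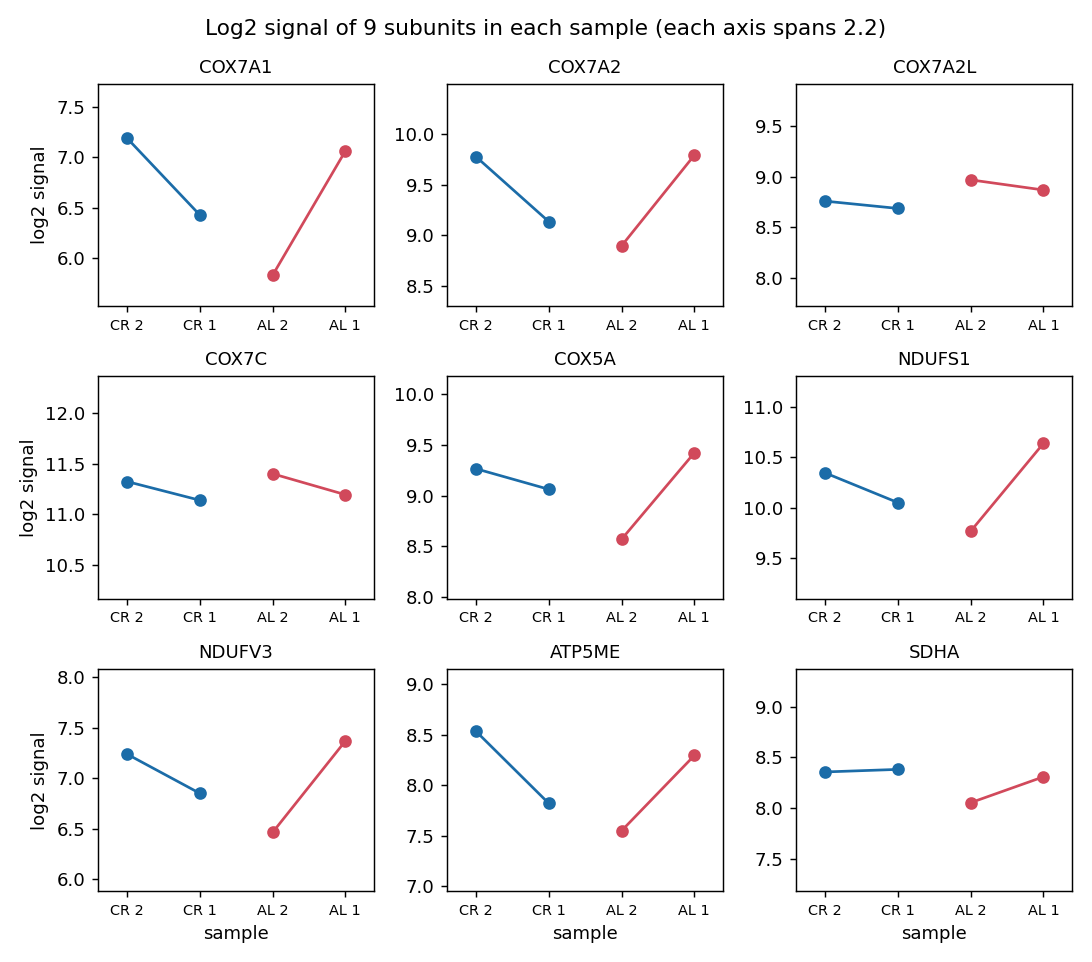
Log2 signal (vertical axis, 2.2 log2 units in every panel) of 9 subunits in samples 2 and 1 of the calorie restriction animal (CR, blue) and of the ad libitum animal (AL, red), 1 array per point. COX7A1, COX7A2, COX5A, NDUFS1, NDUFV3 and ATP5ME have their lowest point at AL 2, and COX7A2L and COX7C their highest.

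COX5A, a subunit on the matrix side of complex IV, had 9.27 and 9.06 in the calorie restriction animal and 8.57 and 9.42 in the ad libitum animal, and was 1.81-fold lower there (-0.86). COX5B, its partner, had 8.38 and 7.98, and 8.08 and 8.28 (changes 0.41 and -0.20). COX6A1 had 10.004 and 9.75, and 9.64 and 10.10, and COX6B1 had 10.51 and 10.09, and 10.03 and 10.43, so that both had the common pair of signs at under 1.5-fold (0.25 and -0.46, 0.42 and -0.41). COX7B, with 10.35 and 9.98, and 9.71 and 10.23, had it too (0.37 and -0.52), as had COX6C (0.34 and -0.18). COX8A had 7.24 and 6.93, and 6.75 and 6.88 (0.31 and -0.13).

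COX7C was positive in both animals (0.18 and 0.21), with 11.32 and 11.14, and 11.40 and 11.19, and its other 2 probe sets past the level filter were positive in both as well (0.30 and 0.24, and 0.37 and 0.87). Among the isoforms known from muscle, testis or other restricted tissues, COX7A1 and, outside the list of names, COX4I2 passed the level filter, and others were dim. COX6A2, COX6B2, COX7B2 and COX8C lay at 2.07 to 4.22 in every sample, all below the level filter, and their changes lay between -0.11 and 0.32 in the calorie restriction animal and between -0.19 and 0.057 in the ad libitum animal. The median of complex IV was 0.31 in the calorie restriction animal, and in the ad libitum animal it was -0.19 over all 15 genes and -0.41 over the 11 past the filter.

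Several genes of complex IV and its surroundings are outside the list of names. COX4I2, an isoform of the COX4 subunit known from lung and low oxygen, had 9.15 and 9.68 in the calorie restriction animal and 6.37 and 8.38 in the ad libitum animal, so that it was lower in sample 2 of both (-0.53 and -2.01). COXFA4, once named NDUFA4 and a subunit of complex IV, had 10.65 and 10.24, and 10.31 and 10.53 (0.41 and -0.22), and its relative COXFA4L2 had 7.56 and 7.32, and 5.84 and 6.52 (0.24 and -0.68). CYCS, cytochrome c itself, had 8.06 and 7.64, and 7.19 and 8.16, with changes of 0.43 in the calorie restriction animal and -0.97, or 1.96-fold lower, in the ad libitum animal. ETFDH, which feeds electrons of fatty acid oxidation to ubiquinone, had 0.15 in the calorie restriction animal and was 1.83-fold lower in the ad libitum animal (-0.87). Of the 13 genes of the list of neighbouring genes, which holds COX4I2, CYCS, ETFDH and also the member ATP5IF1, 10 had the common pair of signs.

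Complex V, ATP synthase, had positive changes in all 18 genes in the calorie restriction animal (0.061 to 0.71, median 0.37) and negative ones in 16 of 18 in the ad libitum animal (range -0.78 to 0.12, median -0.32). In the head and central stalk, the alpha subunit ATP5F1A had 11.99 and 11.89 in samples 2 and 1 of the calorie restriction animal and 11.80 and 12.08 in those of the ad libitum animal. The catalytic beta subunit, ATP5F1B, had 11.66 and 11.50, and 11.26 and 11.85, and was 1.51-fold lower in the ad libitum animal (-0.60). The order of the 4 samples was the same for these subunits, with the ad libitum sample 2 lowest and sample 1 highest.

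Subunits of the central stalk differed among themselves. ATP5F1E, the epsilon subunit, had 8.92 and 8.46, and 8.09 and 8.85 (0.47 and -0.76), and ATP5F1D, the delta subunit, had 7.81 and 7.33, and 7.39 and 7.999 (0.49 and -0.61). The gamma subunit ATP5F1C, with 11.09 and 10.73, and 10.82 and 11.11, had 0.35 and -0.29. Over the 5 genes of the head and central stalk the medians were 0.35 and -0.60, and over the 4 of the peripheral stalk 0.32 and -0.29. ATP5PB, of the peripheral stalk, had 8.92 and 8.69 in the calorie restriction animal (0.23) and 8.52 and 9.19 in the ad libitum animal, where it was 1.59-fold lower (-0.67).

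In the membrane part, ATP5ME, subunit e, was among the 3 subunits past 1.5-fold in both animals (4.00% of members against 1.18% of all genes), the others being COX7A1 and COX7A2. It had 8.53 and 7.82 in the calorie restriction animal and 7.55 and 8.29 in the ad libitum animal (0.71 and -0.74). ATP5MK, a small subunit, had 8.67 and 8.29, and 7.88 and 8.65 (0.38 and -0.78). The 3 genes ATP5MC1, ATP5MC2 and ATP5MC3 encode the same mature ring subunit c, yet differed in the ad libitum animal. ATP5MC3 had 11.27 and 10.89, and 10.57 and 11.12 (0.38 and -0.54), and ATP5MC1 had 8.64 and 8.31, and 8.49 and 8.89 (0.33 and -0.40). ATP5MC2, by contrast, had 10.63 and 10.45, and 10.74 and 10.69 (0.19 and 0.050). These are the chosen probe sets, and other probe sets of ATP5MC3 past the level filter had -0.61 and 0.24 in the ad libitum animal. ATP5IF1, the inhibitor of the enzyme, had 8.25 and 7.86, and 8.06 and 8.07, and so had a change in the calorie restriction animal (0.40) and next to none in the ad libitum animal (-0.0041).

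Medians in the calorie restriction animal were 0.31, -0.0016, 0.25, 0.31 and 0.37 for complexes I to V, and those in the ad libitum animal were -0.35, -0.24, -0.46, -0.19 and -0.32. Of the 15 genes of complex IV, 11 passed the level filter, and over these its ad libitum median was -0.41. In each animal the ranges of the genes overlapped between every pair of complexes. At 1.5-fold, the subunits lower in the ad libitum animal were 5 of 32 in complex I (15.6%), 0 of 3 in complex II, 0 of 7 in complex III, 3 of 15 in complex IV (20.0%) and 6 of 18 in complex V (33.3%), beside 15.2% of all genes. Genes of a complex are not replicates, and no test was made between complexes.

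**Figure D4:**
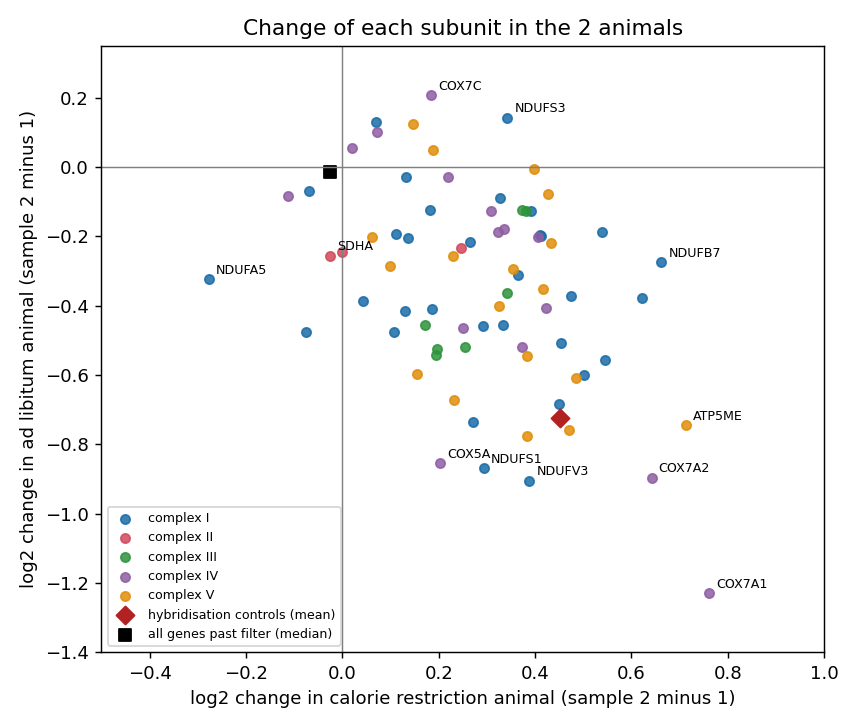
Log2 change in the calorie restriction animal (horizontal axis) against that in the ad libitum animal (vertical axis) for each of the 75 subunits, coloured by complex, with the mean of the hybridisation controls (diamond, 0.45 and -0.72) and the median of all genes past the level filter (square). Of the subunits, 62 lie right of and below 0 and none left of and above it, and COX7A1 lies farthest out.

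As a description across genes that share 4 arrays, Pearson's r between the changes in the animals was -0.39 and Spearman's rho -0.33 over the 75 subunits, and -0.37 and -0.27 over the 68 past the level filter. Over all 9888 genes past the filter Pearson's r was -0.27, so a negative value was not particular to the subunits. A limma fit of all 4 samples, with the animal as a block and the change taken with opposite signs, called 0 of 68 subunits and 0 of 9888 genes (0.00%) at a Benjamini-Hochberg adjusted p under 0.05. At an unadjusted p of 0.05, 10 of 68 subunits (14.7%) and 7.46% of all genes passed. The estimate, the mean of the calorie restriction change and the sign-turned ad libitum change, was 0.99 ± 0.22 (SE) for COX7A1, with a limma adjusted p of 0.65, 0.77 ± 0.22 for COX7A2 (adjusted p of 0.66) and 0.73 ± 0.20 for ATP5ME (adjusted p of 0.66). That fit had 1 residual degree of freedom.

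Between the animals the subunits hardly differed on average. With the calorie restriction minus the ad libitum animal as the difference, the median over the 75 subunits was 0.054, and both samples of the calorie restriction animal lay above both of the ad libitum animal in 7 subunits (9.33%, against 16.6% of all genes) and below in 3 (4.00%, against 18.7%). The largest such difference was in UQCR11, a small subunit of complex III, with 6.35 and 6.10 in samples 2 and 1 of the calorie restriction animal and 5.47 and 5.99 in those of the ad libitum animal. Its means were 6.22 ± 0.18 and 5.73 ± 0.37 (SD, n = 2 samples of 1 animal each), a difference of 0.50 ± 0.24 (SE) with a limma adjusted p of 0.90. COX8A (0.27), UQCRB (0.26), SDHA (0.19), SDHD (0.16) and NDUFB5 (0.15) were also higher in every calorie restriction sample, and COX7A2L (-0.20) and ATP5MC2 (-0.17) lower, with limma adjusted p between 0.92 and 0.95.

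Limma called 0 of 68 subunits and 0 of 9888 genes (0.00%) for this difference, and at an unadjusted p of 0.05 it passed 0 subunits and 522 genes (5.28%). The p-values measure the spread between the samples of these animals and not between animals, and may be technical. Sample by sample the difference turned round. Sample 2 of the calorie restriction animal was above sample 2 of the ad libitum animal in 69 of 75 subunits (median 0.35). By contrast, sample 1 of the calorie restriction animal was below sample 1 of the ad libitum animal in 65 of 75 (median -0.25). The medians over all genes past the level filter were -0.0052 and -0.0067, and the share of all genes in each direction was not counted. Without the ad libitum sample 2 the median of the limma estimates over 68 subunits was -0.11, against 0.050 with all 4 samples. Without the calorie restriction sample 2 it was -0.098, without the calorie restriction sample 1 it was 0.22, and without the ad libitum sample 1 it was 0.20.

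The other mitochondrial genes were read from lists. Of 14 genes of the tricarboxylic acid cycle and pyruvate oxidation, which supplies NADH to complex I, none was 1.5-fold higher in the calorie restriction animal (median 0.11), and 4 were 1.5-fold lower in the ad libitum animal (median -0.39). These included DLAT, of the pyruvate dehydrogenase complex (0.12 in the calorie restriction animal and -1.12 in the ad libitum animal), OGDH (0.19 and -0.87) and MDH2, malate dehydrogenase (0.17 and -0.75). Of 9 carriers and channels of the mitochondrial membranes, SLC25A4, which exchanges ADP for ATP, was 1.5-fold lower in the ad libitum animal (0.37 and -0.66), and UCP2, an uncoupling protein relative, was higher there (-0.16 and 0.69).

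Assembly factors, which build the complexes but are no part of them, had medians nearer to 0 than the subunits, a difference that was not tested. The 16 of complex I had medians of 0.15 in the calorie restriction and -0.15 in the ad libitum animal, with NDUFAF5 (0.39 and -0.62) and ACAD9 (0.19 and -0.59) lower at 1.5-fold in the ad libitum animal. The 33 of complexes II to V had medians of 0.068 and -0.037, with 1 higher at 1.5-fold in the calorie restriction animal, COX20 (0.59, below the level filter), and 2 lower in the ad libitum animal, COA4 (-0.62) and ATPAF2 (-0.60). The 16 regulators of mitochondrial biogenesis had medians of -0.049 and -0.018. Of these, ESRRG, below the level filter, was the only one past 1.5-fold (0.64 in the calorie restriction animal), while NRF1, a transcription factor for respiratory chain genes, had -0.047 and 0.46, and the coactivator PPARGC1A, below the filter, -0.18 and 0.42. Mitochondrial ribosomal proteins, 75 in number, had medians of 0.23 and -0.27, with 55 of 75 showing the same pair of signs as the subunits.

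**Figure D5:**
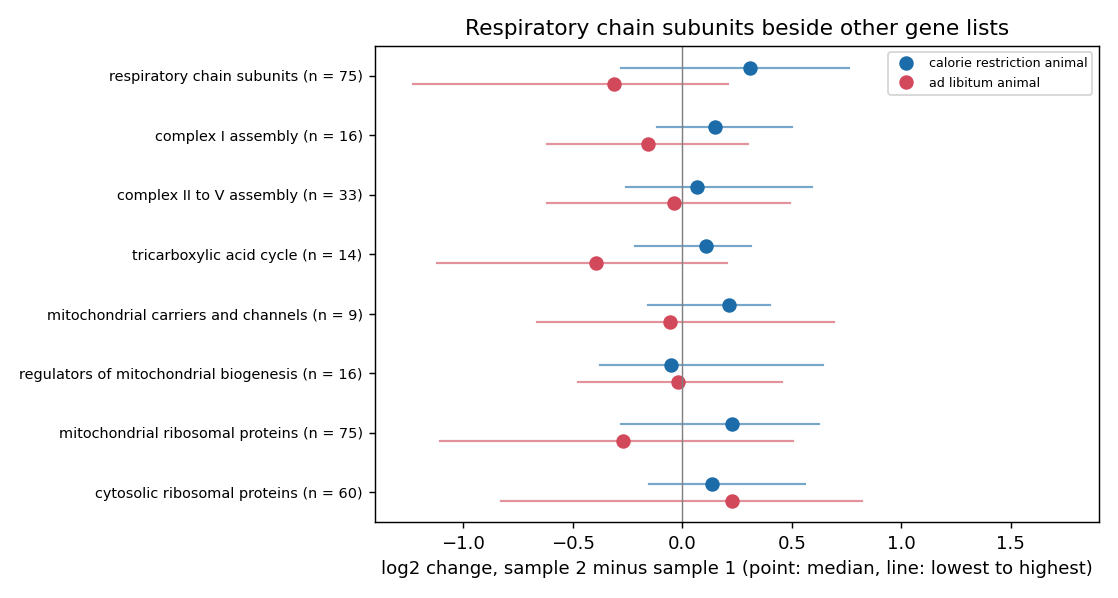
Log2 change, sample 2 minus sample 1 (horizontal axis), of gene lists in the calorie restriction animal (blue, upper) and the ad libitum animal (red, lower), with the median as a point and the lowest to highest gene as a line. Respiratory chain subunits (0.31 and -0.31) and mitochondrial ribosomal proteins (0.23 and -0.27) have medians of opposite sign in the animals, and cytosolic ribosomal proteins (0.14 and 0.23) of like sign.

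A gene was represented by its brightest probe set, and 40 of the 75 chosen probe sets were of the designs that can match related sequences. Another probe set past the level filter existed for 18 subunits, 29 probe sets in all, of which 26 had the sign of the chosen one in the calorie restriction animal (median 0.33) and 23 in the ad libitum animal (median -0.15). NDUFS1 had -0.87 and -1.002 in the ad libitum animal from its 2 probe sets past the filter, ATP5ME -0.74 and -0.59, and UQCRC2 -0.52 and -0.71. In the calorie restriction animal the second probe sets of NDUFS1 (0.29 and -0.072) and UQCRC2 (0.20 and -0.061) had the opposite sign to the chosen ones. SDHC had -0.23 from the chosen probe set and -0.34, -0.68 and -0.39 from the others. Others differed more in the ad libitum animal, where ATP5F1D had -0.61 and -0.057. From the chosen probe set and one other, the sign turned in UQCRB (-0.13 and 0.19) and ATP5MC3 (-0.54 and 0.24). It turned likewise in NDUFB8 (-0.12 and 0.46) and NDUFA11 (-0.37 and 0.24). ATP5MG had -0.078 from the chosen probe set and 0.029 and 0.015 from others.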

How the data were processed

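The authors deposited log2 signals per probe set for 4 arrays. Affymetrix Power Tools and RMA are named in the submitters' processing notes, without a version. RMA normalises between arrays, so a change common to most genes is lost, and no scanner files were used here. Of 54675 probe sets, 62 were controls, 41091 had 1 gene symbol, 1801 several and 11721 none in the annotation used. Probe sets with 1 symbol were kept, and all 75 subunits were found by name in RefSeq's vervet gene table. Having 4 arrays limits the precision.

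Each gene took its probe set with the highest mean. Changes within an animal are sample 2 minus sample 1, with fold thresholds and no test. Changes of opposite sign and differences between the animals were fitted with limma 3.58.1 in R 4.3.3 (lmFit, eBayes with a trend, Benjamini-Hochberg over the genes past the level filter). The procedure was tested on simulated data with 1 common spread for all genes and samples, unlike the real arrays. Of effects planted at 2-fold, it called 9 of 67 differences between animals and 17 of 67 opposed changes. The lack of calls therefore does not exclude effects of that size. Members and lists were chosen with earlier results of these data known. The arms of complex I, the parts of ATP synthase and the ribosomal lists were set up after the values had been seen. Named genes are catalytic subunits, isoform pairs, the 3 largest changes per complex and animal, the 8 largest differences between animals whose samples do not overlap, and up to 3 leading genes per list and animal. Other named members and probe sets were chosen after their values were seen. Alternatives were other level filters, probe set rules, cyclic loess, fold thresholds, no trend, a block on sample number, leaving out samples, another sorting of complex members and scaling on the hybridisation controls.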

Additional observations from a re-analysis of the deposited data

Results flagged for a closer look

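Changes that went opposite ways in the 2 animals met the mark for a closer look: a median of opposite sign, or a gene 1.5-fold higher in the calorie restriction animal and 1.5-fold lower in the ad libitum animal. The median change of the calorie restriction animal minus that of the ad libitum animal was 0.62 over all 75 subunits, 0.66 in complex I, 0.71 in complex III, 0.49 in complex IV and 0.69 in complex V. The same difference was 1.99 for COX7A1, 1.54 for COX7A2 and 1.46 for ATP5ME. For the medians the difference was not tested, and for the genes the limma fit of the opposed change gave adjusted p of 0.65 to 0.66. The hybridisation controls differed in the same way (0.45 and -0.72).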

How the results depend on the processing

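With arrays scaled on the hybridisation controls, added after seeing the data, medians reversed: -0.14 and 0.41 over all subunits, in the calorie restriction and the ad libitum animal, -0.14 and 0.38 in complex I, -0.45 and 0.48 in complex II (of like sign to the main value in the first animal), -0.20 and 0.27 in complex III, -0.14 and 0.54 in complex IV and -0.082 and 0.40 in complex V. In that setting 0 subunits were 1.5-fold higher in the calorie restriction animal and 0 lower in the ad libitum animal, 12 kept a positive and 9 a negative change. Averaging all probe sets of a gene, the ad libitum medians were -0.20 over all subunits and -0.19 in complex I, 7 subunits were 1.5-fold lower there, and complex II had 0.020 in the calorie restriction animal. Complex II had 0.028 there after cyclic loess. Probe sets of the less specific designs were also left out where a gene had another, and genes with no other, such as ATP5ME, kept theirs. With that rule the calorie restriction medians were 0.20 over all subunits, 0.19 in complex I and -0.025 in complex II, and the ad libitum median of complex I was -0.21. Then 60 subunits had a positive change in the calorie restriction animal and 52 a negative one in the ad libitum animal. Among the subunits past 1.5-fold these turned in sign, on probe sets below the level filter: NDUFB7 (-0.16 in the calorie restriction animal), ATP5PB (0.25), COX5A (0.28) and NDUFS7 (0.18) in the ad libitum animal. Complex IV had -0.41 in the ad libitum animal with only members past the level filter. At the lowest fold threshold tried 37 of 75 subunits were higher in the calorie restriction and 37 lower in the ad libitum animal. Of all 9888 genes past the level filter, 946 and 2633 passed that lowest threshold in the same directions. At 2-fold the counts were 0 and 1 for the subunits, and 49 and 651 for those genes. Without a level filter 9.28% of all genes were 1.5-fold lower in the ad libitum animal. The cause was not tested where the construction does not show it. For the difference between animals, leaving out 1 sample in turn gave 0 to 474 genes with a limma adjusted p under 0.05, the 474 without the ad libitum sample 1, and 0 subunits each time, with the lone sample assumed to vary like the other animal's. The opposed change has no residual degree of freedom with a sample left out. Same-numbered samples are not stated to be paired, and the changes of the animals correlated at -0.27 over 9888 genes. The replicate block on sample number gave 0 genes (506 at an unadjusted p of 0.05), and the crossed replicate block, pairing sample 2 of one animal with sample 1 of the other, 0 (809). No other alternative for either limma fit gave a call.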

Other observations

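Subunits encoded in mitochondrial DNA were represented by 7 genes, of which ND4, a proton-pumping subunit of complex I, passed the level filter. It had log2 signals of 8.49 and 8.54 in samples 2 and 1 of the calorie restriction animal and 7.85 and 8.17 in those of the ad libitum animal, changes of -0.051 and -0.32. The other 6 lay below the filter, and over all 7 the medians were 0.058 and -0.15. The list was set up after the values had been seen.

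Steroid synthesis in the mitochondrion was measured through 5 genes. FDX1, the ferredoxin that brings electrons to the side-chain cleavage enzyme, had 12.76 and 12.17 in the calorie restriction animal and 10.77 and 13.02 in the ad libitum animal (0.59 and -2.25), and CYP11A1, that enzyme, had 11.80 and 11.03, and 9.97 and 12.16 (0.77 and -2.19). STAR, which brings cholesterol into the mitochondrion, had 11.28 and 10.24, and 9.002 and 12.49 (1.03 and -3.49). TSPO (0.050 and -0.61) and STARD3 (0.35 and -0.15) changed less. All 5 measured genes of this list had the pair of signs common among the respiratory chain subunits.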
